A study of Mus musculus with 2 samples.

Results

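Bone morphogenetic protein (BMP) signaling was followed through 10 genes in 2 single-cell RNA libraries of the mouse mandible. The genes are the ligands Bmp2, Bmp4 and Bmp7, the homeobox genes Msx1 and Msx2, the Id genes Id1, Id2 and Id3, and the inhibitory Smads Smad6 and Smad7. They were picked by symbol, as genes of a known pathway, from the 27514 genes listed in both libraries, and all 10 were found in both. The first library holds epithelial cells of E12.0 mandibles, from 6 littermates of genotype K14Cre;R26mT/mG that were pooled and sorted for GFP. K14Cre drives Cre recombinase from a keratin 14 promoter, and the R26mT/mG reporter turns from membrane tdTomato to membrane GFP in cells where Cre has acted, so epithelial cells that had not recombined were left out by the sort. The second library holds unsorted cells of whole mandibular arches, epithelium and mesenchyme together, from 8 pooled embryos at E9.5, for which the labels give the same genotype. The labels name no treatment at either stage. Each stage is 1 library, so no test of a difference is possible, every interval below covers counting error only, and what a difference between embryos would add to it is unknown.

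BMPs are secreted ligands that bind pairs of type I and type II serine/threonine kinase receptors, which phosphorylate Smad1, Smad5 and Smad9. These enter the nucleus with Smad4 and act on target genes. The Id genes, which encode helix-loop-helix proteins that bind E proteins and keep them from DNA, and Msx1 and Msx2, which encode homeodomain repressors, are among the best known of these targets in the jaw. Smad6 and Smad7 are also induced by the pathway and damp it, Smad6 mainly the BMP branch and Smad7 both the BMP and the TGFβ branch. In the mandibular arch, epithelial Bmp4 on the distal, medial side and Fgf8 on the proximal, lateral side mark complementary domains, and Bmp2, Bmp4 and Bmp7 are produced later in the epithelial signaling centers of the teeth.

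Upstream sequence was used for 6 of the 10 genes (Bmp4, Msx1, Msx2, Id2, Id3 and Smad6). The windows below, the 250 bases before the RefSeq gene start in GRCm38.p6, belong to Id2 and Id3, a pair of related genes that differed in direction between the anterior and the dental epithelium (see the values of the Cxcl14 and Irx1 zones). Both read 5′ to 3′ on the strand of the gene, and both lie inside the gene spans of the other annotation used for positions below, which start farther upstream. Capitals mark GGCGCC, a palindrome known from BMP-responsive elements of Id genes, and the Smad-binding letters CAGAC on either strand, shown as GTCTG on the opposite strand. The motifs do not overlap. The Id2 window is chr12:25096093-25096342 on the minus strand and the Id3 window chr4:136143572-136143821 on the plus strand.
Id2: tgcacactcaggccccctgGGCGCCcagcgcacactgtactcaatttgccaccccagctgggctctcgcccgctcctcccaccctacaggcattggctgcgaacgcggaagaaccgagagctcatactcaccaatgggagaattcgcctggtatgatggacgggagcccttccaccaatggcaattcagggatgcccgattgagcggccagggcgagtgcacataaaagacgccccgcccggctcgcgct
Id3: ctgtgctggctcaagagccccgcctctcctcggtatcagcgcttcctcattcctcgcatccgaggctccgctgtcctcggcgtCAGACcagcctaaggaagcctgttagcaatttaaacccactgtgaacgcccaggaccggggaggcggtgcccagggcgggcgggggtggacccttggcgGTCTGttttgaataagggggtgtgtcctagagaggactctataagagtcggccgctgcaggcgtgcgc
The Id2 window held GGCGCC once, starting 231 bases before the gene start, and no CAGAC. The Id3 window held CAGAC at 2 places, starting 167 and 68 bases before the gene start, and no GGCGCC. Of 32851 windows of this kind in the genome, 9.59% held GGCGCC and 42.2% held CAGAC on either strand. In the windows of Bmp4, Msx1, Msx2 and Smad6 neither motif was found, which says only that these letters are not in these bases.

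In GRCm38, Bmp2 (ENSMUSG00000027358) is at chr2:133552159-133562885 on the plus strand and Bmp7 (ENSMUSG00000008999) on the same chromosome at chr2:172868012-172940321 on the minus strand. Bmp4 (ENSMUSG00000021835) is at chr14:46383520-46390669, Msx1 (ENSMUSG00000048450) at chr5:37820485-37824583 and Msx2 (ENSMUSG00000021469) at chr13:53466884-53473074, all on the minus strand. Id1 (ENSMUSG00000042745) is at chr2:152736251-152737410 and Id3 (ENSMUSG00000007872) at chr4:136143497-136145755, both on the plus strand. Id2 (ENSMUSG00000020644) is at chr12:25093799-25097140 and Smad6 (ENSMUSG00000036867) at chr9:63953076-64022059, both on the minus strand. Smad7 is ENSMUSG00000025880. Reads of this chemistry come from the 3′ ends of transcripts, so a level is compared between groups of cells for the same gene and not between genes.

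The E12.0 library held 78911671 unique molecular identifiers (UMIs, distinct transcript molecules) in 11663 barcodes, and the E9.5 library 208540526 in 14293 barcodes. Cells with 200 to 5500 genes and at most 10% mitochondrial UMIs were kept, which left 11355 cells with a median of 6349 UMIs at E12.0 and 12744 cells with a median of 13460.5 UMIs at E9.5. The libraries had 51 barcodes in common. Expression is given as CPM, the gene's UMIs in all cells of a group, scaled to 1000000 total UMIs, with exact 95% Poisson intervals for levels, exact conditional binomial intervals for ratios of CPM and Clopper-Pearson intervals for shares. A gene is called higher in a group when its CPM was at least 1.3 times that of the other group and at least 15% of the cells of the higher group held a UMI of it. These are criteria of size, not of significance. The same criteria applied to all genes with UMIs in 15% or more of cells of either group gave the background share printed beside each count, which is to be read against those of the 10 genes that reached the same share of cells. As a gauge of free RNA, 74 blood cells of the E9.5 library with a median of 16858.5 UMIs held a UMI of Bmp2 or Bmp4 in 1.35% each and of Bmp7 in 8.11%, but of Id1 in 39.2% and of Id3 in 54.1%. Shares of the ligands at or below those values were read as background, and the shares of the Id genes were not used. With only 74 blood cells these ligand shares are imprecise. A ligand share above them is therefore not shown to lie above background, least of all for Bmp2 and Bmp4 in few cells. The sorted E12.0 library held no such cell type.

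At E12.0 the cells were divided by marker UMIs into zones. A Shh zone of 258 cells had at least 2 UMIs of Shh, the hedgehog ligand made in the initiation knot, the early signaling center of the tooth, and also in tongue epithelium. Of the other cells, 1309 had a UMI of the dental marker Irx1, 4791 had at least 3 UMIs of the anterior marker Cxcl14 and 548 had a UMI of the posterior marker Dmrt2. A further 264 cells met more than 1 of these last 3 criteria and 4185 met none. The library carried 787 CPM of the epithelial panel and 1484 CPM of keratins, against 0.962 CPM of mesenchymal and 1.23 CPM of endothelial markers and no haemoglobin. The tooth knot markers Dkk4 and Fgf20 summed to 80.0 CPM in the Shh zone and 0.987 CPM in the Irx1 zone, and the dental marker Irx2 was at 83.7 CPM in the Irx1 zone and 12.3 CPM in the Cxcl14 zone. Tfap2b, an aboral marker, was at 834 CPM in the Cxcl14 zone and 40.6 CPM in the Irx1 zone. The posterior panel was at 55.5 CPM in the Dmrt2 zone, 53.3 CPM in the cells that met no criterion and 13.9 CPM in the Irx1 zone, so the name of the Dmrt2 zone rests on Dmrt2 and the zone is called by that gene. Within the Shh zone, 52 cells held a Dkk4 UMI, 24 a UMI of Foxa1 or Foxa2, which mark endodermal and tongue epithelium, and 35 at least 3 UMIs of periderm genes. The zone is therefore not the knot alone.

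In the Shh zone all 3 ligands stood higher than in the dental Irx1 zone. Bmp2 was at 193 CPM (174.7 to 213) in the Shh zone and 11.5 CPM (9.46 to 13.7) in the Irx1 zone, with 5.22 CPM in the Cxcl14 zone, 5.50 CPM in the ungated cells and 2 UMIs in all, 0.516 CPM, in the Dmrt2 zone. A Bmp2 UMI was present in 51.6% of the Shh cells and 6.65% of the Irx1 cells. Only the Shh zone carried Bmp2 in a large share of its cells, and the Bmp2 ratio of Shh to Irx1 zone was 16.9 (13.7 to 20.9). Bmp4 was at 53.0 CPM (43.5 to 63.9) in the Shh zone, 13.4 CPM in the Cxcl14 zone, 5.18 CPM in the ungated cells, 3.06 CPM (2.08 to 4.34) in the Irx1 zone and 1.55 CPM in the Dmrt2 zone, with a UMI in 29.5%, 8.43%, 2.22% and 1.10% of the Shh, Cxcl14, Irx1 and Dmrt2 cells. The Bmp4 ratio of Shh to Irx1 zone, 17.3 (11.5 to 26.7), was close to that of Bmp2. Bmp7 differed less between the zones than Bmp2 and Bmp4 did. It was at 137 CPM in the Shh zone, 76.6 CPM in the Cxcl14 zone, 59.2 CPM in the ungated cells, 57.0 CPM in the Irx1 zone and 51.3 CPM in the Dmrt2 zone, with a Shh to Irx1 ratio of 2.41 (2.08 to 2.78).

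**Figure D1:**
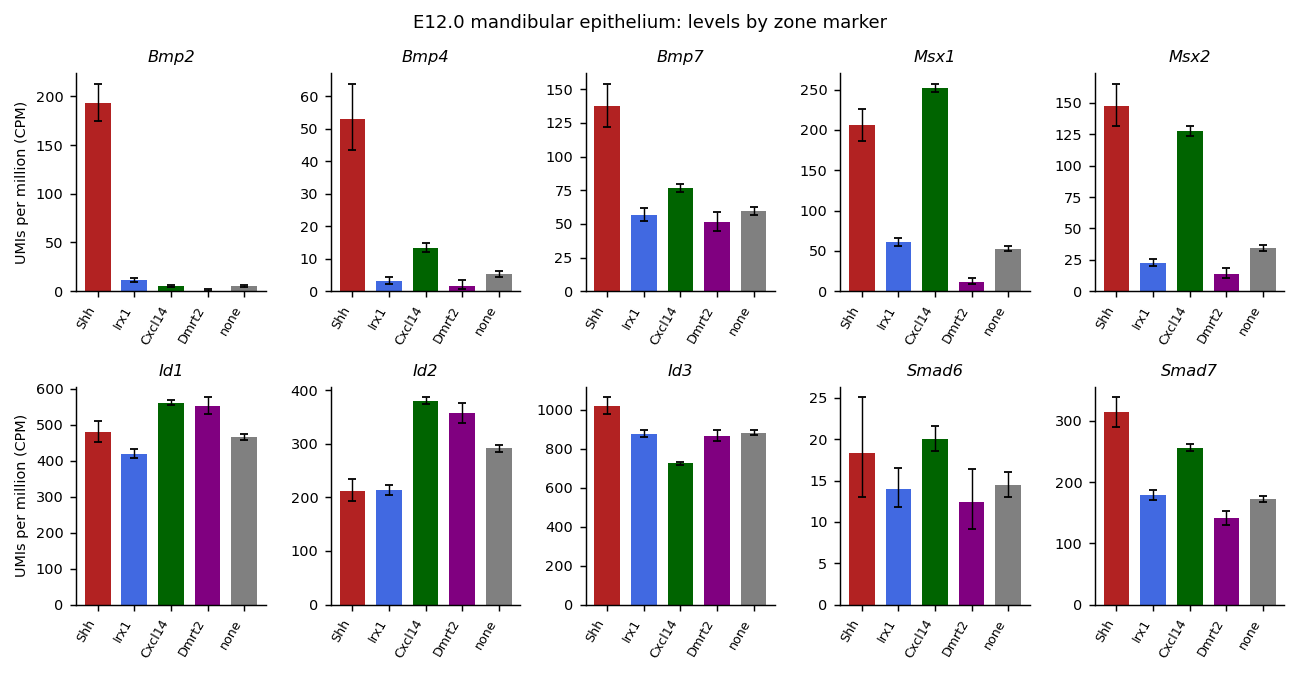
CPM of the 10 genes in the E12.0 zones and in the cells that met no gate (none), 1 panel per gene with a linear axis from 0. Bars are sums over the cells of a group and whiskers exact 95% Poisson intervals. Bmp2 stands at 193 CPM in the Shh zone against at most 11.5 CPM elsewhere, Msx1 is highest in the Cxcl14 zone at 252 CPM, and Id3 is lowest in that zone at 725 CPM.

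The response genes divided in the same comparison. Msx1 was at 206 CPM in the Shh zone and 61 CPM in the Irx1 zone, a ratio of 3.37 (2.97 to 3.82), and Msx2 at 148 CPM and 22.7 CPM, a ratio of 6.51 (5.47 to 7.76). Smad7, the feedback inhibitor, was at 314 CPM and 179 CPM, a ratio of 1.76 (1.60 to 1.92). The 3 Id genes moved little between these zones, with 480 and 419 CPM of Id1, 212 and 213 CPM of Id2 and 1022 and 876 CPM of Id3, and their ratios of 1.15 (1.07 to 1.23), 0.998 (0.898 to 1.11) and 1.17 (1.11 to 1.22) all fell short of the size criterion. Smad6 was low, at 18.3 and 14.02 CPM, and the interval of its ratio, 0.888 to 1.88, included 1. In all, 6 of the 10 genes met the criteria as higher in the Shh zone (background 14.1%) and none as lower (background 12.4%), and 9 had UMIs in 15% or more of the cells of either zone. The median log2 ratio (with 5 CPM added) of the 10 genes was 1.00, against -0.01 over all genes compared. Here and in every later comparison, the first median covers all 10 genes, also those with UMIs in under 15% of cells. The second covers only genes that reached 15% of the cells of either group, so the 2 sets were filtered differently. Of the other known response genes, 5 of 10 were higher, namely Tbx3 (a T-box factor) by 3.81-fold, Bambi (a decoy receptor) by 3.003-fold, Hey1 by 2.71-fold, Id4 by 1.71-fold and Dlx3 by 1.59-fold, and none was lower. Among 6 receptors only the type II receptor Bmpr2 was higher, by 1.33-fold, and none of the 4 Smads that carry the signal was. None of the 9 other BMP-family ligands had UMIs in 15% of the cells of either zone, so none could be called, and 5 of the 10 other response genes did. Beside these ratios, 12.4% of the Shh cells were called doublets against 3.74% of the Irx1 cells, immediate-early genes, which respond to dissociation, were at 1127 and 637 CPM, and cell cycle genes at 850 and 1336 CPM. Their part in the result was not tested. When cells that meet several gates were counted in each, the ratios of Bmp2, Bmp4, Msx1 and Msx2 were 9.61, 7.70, 2.20 and 3.35, and with stricter gates that of Msx2 was 9.93.

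Bmp2, Bmp4 and Bmp7 were higher in each class of cells with more Shh UMIs. Over cells with 0, 1, 2 to 3, 4 to 7 and at least 8 Shh UMIs (10888, 209, 123, 74 and 61 cells), Bmp2 was at 5.33, 38.7, 87.1, 246 and 334 CPM, Bmp4 at 8.30, 17.4, 25.3, 50.9 and 106 CPM and Bmp7 at 66.0, 76.2, 98.3, 155 and 191 CPM. Intervals of neighbouring classes overlapped for Bmp7 at every step except that from 2 to 3 up to 4 to 7 UMIs. They overlapped for Bmp4 at the steps on either side of 2 to 3 UMIs, and for Bmp2 at the last step. Msx2 followed a different course, at 75.8, 52.9, 82.1, 147 and 269 CPM, lower at a single Shh UMI than at none. Id2 stood lowest in the upper classes, at 326, 233, 243, 176 and 193 CPM. These classes were taken over all E12.0 cells, so the class without Shh includes the Cxcl14 zone. Msx2 was at 127.5 CPM in that zone and 22.7 CPM in the Irx1 zone, and Id2 at 380.5 and 213 CPM. The part of this mix of zones in the Msx2 and Id2 courses was not tested. The 133 Shh cells with a Bmp2 UMI had 3.23 times (2.04 to 5.26) the Bmp4 CPM of the 125 without, 1.76 times the Bmp7 CPM and 1.63 times (1.29 to 2.07) the Msx2 CPM. For Msx1 this ratio was 1.15 and its interval, 0.947 to 1.40, included 1.

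In the anterior Cxcl14 zone the Msx genes were high and Bmp2 low. Msx1 was at 252 CPM (246.5 to 257) in the Cxcl14 zone, 206 CPM in the Shh zone, 61 CPM (56.3 to 66.0) in the Irx1 zone, 52.8 CPM in the ungated cells and 11.9 CPM (8.69 to 15.8) in the Dmrt2 zone, and 69.1% of the Cxcl14 cells but 25.5% of the Irx1 cells and 5.11% of the Dmrt2 cells held a UMI. Msx2 was at 127.5 CPM (124 to 131) in the Cxcl14 zone, 22.7 CPM (19.9 to 25.8) in the Irx1 zone and 13.9 CPM in the Dmrt2 zone, with a UMI in 52.2%, 12.7% and 8.21% of the cells. Of the Cxcl14, Irx1 and Dmrt2 zones, both genes were thus highest in the first and lowest in the last. In the Shh zone Msx2 was at 148 CPM, above its Cxcl14 level. The zones are gates by marker, so these levels give no course over positions in the tissue. The ratios of Cxcl14 to Irx1 zone were 4.13 (3.81 to 4.49) for Msx1 and 5.62 (4.92 to 6.44) for Msx2. They became 2.65 and 2.89 when overlapping cells counted in both zones. The 199 cells that met both the Cxcl14 and the Irx1 criterion, of which 43.2% were called doublets, carried 214 CPM of Msx1 and 116 CPM of Msx2.

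Id2 and Id3 differed in direction between these zones. Id2 was at 380.5 CPM in the Cxcl14 zone and 213 CPM in the Irx1 zone, a ratio of 1.79 (1.71 to 1.87). Id3 was at 725 and 876 CPM, a ratio of 0.827 (0.807 to 0.848) whose interval lay below 1 although it did not reach the size criterion. Id1, at 561 and 419 CPM, was 1.34 times (1.295 to 1.39) higher in the Cxcl14 zone, Smad7, at 256 and 179 CPM, 1.43 times (1.36 to 1.51), and Bmp7 1.35 times (1.23 to 1.48). These last calls are close to the limit of 1.3. Those of Bmp7 and Id1 were lost with at most 5% mitochondrial UMIs, at 1.16 and 1.29. They were lost as well with overlapping gates, at 1.29 and 1.28. Bmp4 was 4.39 times (3.05 to 6.54) and Bmp2 0.456 times (0.359 to 0.582) the level in the Irx1 zone, but with a UMI in too few cells to meet the criteria. The count was 6 of 10 higher (background 9.38%) and none lower (background 9.59%), with 7 genes in 15% or more of the cells of either zone, and a median log2 ratio of 0.46 against -0.02 over all genes compared. Tbx3 (5.41-fold), Gata3 (4.40-fold) and Dlx3 (2.55-fold) were the 3 of 10 other response genes higher in the Cxcl14 zone, and the type II receptor Acvr2a (2.07-fold) was the only receptor. Cell cycle genes were at 873 CPM in the Cxcl14 zone and 1336 CPM in the Irx1 zone, and immediate-early genes at 1076 and 637 CPM, whose part in these differences was not tested.

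The levels of Msx1, Msx2 and Smad7 stepped up at low Cxcl14 and then changed little. Over cells with 0, 1 to 2, 3 to 5, 6 to 10, 11 to 20 and at least 21 Cxcl14 UMIs, outside the Shh zone and without Irx1 or Dmrt2, Msx1 was at 31.5, 111, 225, 252, 255 and 269 CPM, Msx2 at 21.1, 71.2, 130, 136, 122 and 127 CPM and Smad7 at 156, 216, 252, 255, 255 and 262 CPM. Id3 went the other way, at 883, 881, 817.5, 751, 685 and 700 CPM. Within the Cxcl14 zone, the 404 cells with a Bmp4 UMI had 1.34 times the Msx1 CPM and 1.27 times the Msx2 CPM of the 4387 without. Among the ungated cells the 123 with a Bmp4 UMI had 2.28 and 2.41 times the Msx1 and Msx2 CPM of those without. The Id1, Id2 and Id3 ratios were 0.969, 1.02 and 0.993 in the Cxcl14 zone and 0.986, 0.891 and 0.939 among ungated cells. Cxcl14 cells with a Bmp7 UMI had 0.912 times the Msx1 CPM and 0.880 times the Msx2 CPM of those without. The ungated cells mix those with 0 and with 1 to 2 Cxcl14 UMIs, which differed in Msx1 and Msx2. The part of this mix was not tested.

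In the Dmrt2 zone Bmp2, Msx1, Msx2 and Smad7 were at their lowest level of the zones while the Id genes were not. Bmp4, Bmp7 and Smad6 also had their lowest values there, with intervals that overlapped those of the Irx1 zone. Against the Irx1 zone, Msx1 stood at 0.195 times (0.141 to 0.263) and Msx2 at 0.614 times (0.447 to 0.828), while Id1, at 553 CPM, was 1.32 times (1.25 to 1.39) and Id2, at 357 CPM, 1.68 times (1.57 to 1.80) higher. Bmp2 was at 0.0451 times (0.00539 to 0.167) the Irx1 level, on 2 UMIs, and Bmp4 at 0.506 times (0.173 to 1.23), on 6 UMIs, an interval that included 1. Smad7, at 141 CPM, had a ratio of 0.787 (0.714 to 0.866), and the Id3 levels of 868 and 876 CPM gave a ratio of 0.990. Among the 10 genes, 2 were higher (background 8.92%) and 1, Msx1, was lower (background 6.76%), with 6 genes in 15% or more of the cells of either zone and a median log2 ratio of -0.22 against 0.02 over all genes. The Id1 call was lost in thinned cells, with stricter gates and with overlapping gates, at ratios of 1.27, 1.29 and 1.27. Smad7 met the criteria as lower under 7 alternatives, at 0.725 to 0.768, and Msx2 did with overlapping gates, at 0.447. The Msx1 ratio was 0.129 without called doublets, 0.115 in thinned cells and 0.124 with stricter gates. Bambi, the decoy receptor, was at 7.996 CPM in the Dmrt2 zone and 84.7 CPM in the Irx1 zone, and Id4 was 1.88-fold higher, so 1 of 10 other response genes was lower and 1 higher. Of the receptors Acvr2a was higher by 1.35-fold, and of the signal-carrying Smads Smad1 was lower, at 0.765 times.

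Set directly against each other, the Cxcl14 and Dmrt2 zones differed in Msx1 by 21.2-fold (15.9 to 29.0) and in Msx2 by 9.16-fold (7.004 to 12.2). Smad7 was 1.82 times (1.67 to 1.99) and Bmp7 1.49 times (1.29 to 1.73) higher in the Cxcl14 zone, whereas the ratios of Id1, Id2 and Id3 were 1.02, 1.07 and 0.835. Bmp4 had a ratio of 8.68 (3.96 to 23.8) with a UMI in under 15% of cells. The criteria were met as higher by 4 of 10 genes (background 8.59%) and as lower by none (background 12.2%), 7 genes having UMIs in 15% or more of the cells of either zone, with a median log2 ratio of 0.69 against -0.03. The Msx1 ratio was 32.4 without called doublets, 32.1 with stricter gates and 10.6 with overlapping gates. Of the other response genes 4 of 10 were higher, namely Bambi (11.7-fold), Tbx3 (6.61-fold), Dlx3 (3.15-fold) and Gata3 (2.04-fold), and Id4, at 0.560 times, was lower. Acvr2a was 1.53-fold higher and the type I receptor Acvr1 lower, at 0.603 times.

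Along the other axis at E12.0, Isl1, a LIM homeobox gene of the medial side, was set against Fgf8. Cells with an Isl1 UMI and no Fgf8 UMI (3881) carried 3.39 times (3.05 to 3.79) the Msx1 CPM, 3.21 times (2.77 to 3.73) the Msx2 CPM and 2.82 times (1.92 to 4.30) the Bmp4 CPM of the 910 cells with Fgf8 and no Isl1. Bmp4 was at 12.1 and 4.28 CPM and Msx2 at 95.6 and 29.8 CPM. The Id genes and Smad7 did not meet the criteria, with ratios of 0.986 (0.949 to 1.03) for Id1, 1.24 (1.18 to 1.302) for Id2, 0.9301 (0.904 to 0.957) for Id3 and 1.01 (0.954 to 1.07) for Smad7, the intervals of Id2 and Id3 lying on opposite sides of 1. With at most 5% mitochondrial UMIs the Id2 ratio was 1.41 and met the criteria. Bmp2 stood slightly higher on the Fgf8 side, at a ratio of 0.703 (0.548 to 0.909). Only Msx1 and Msx2 met the criteria, so 2 of 10 genes were higher (background 3.35%) and none lower (background 2.17%). With 7 genes in 15% or more of the cells of either group, the median log2 ratio was 0.08 against -0.01 over all genes. Tbx3 (5.70-fold), Gata3 (4.596-fold), Bambi (1.92-fold) and Dlx3 (1.34-fold) were higher among the 10 other response genes, with no receptor, Smad or other ligand. The markers are spread unevenly over the zones, with 1549 Isl1 cells and 85 Fgf8 cells in the Cxcl14 zone, so the ratios were also taken within zones. Within the Irx1 zone (380 against 302 cells) the Msx1 and Msx2 ratios were 3.22 and 3.02, within the Cxcl14 zone 2.17 and 1.94, and among ungated cells (1390 against 472) 1.37 and 1.27. The Bmp4 ratio was 2.37 (1.07 to 6.54) in the Cxcl14 zone, 2.29 (0.803 to 8.01) in the Irx1 zone and 1.15 (0.639 to 2.19) among ungated cells, the last 2 intervals including 1. With at least 2 UMIs of either marker the Msx2 ratio was 5.31.

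At E9.5 the unsorted arch was divided by marker panels into 2719 epithelial, 392 endodermal, 5732 mesenchymal, 566 mesoderm core, 616 neural crest, 541 endothelial and 74 blood cells, with 281 epithelial cells that could not be placed and 1823 unassigned. Haemoglobin transcripts lay at 142 to 447 CPM in every group other than blood, the mesenchymal panel at 76.7 CPM in epithelium and the epithelial panel at 28.7 CPM in mesenchyme, so that RNA of other cells is present at a low level in each group. Ligand and response genes were not distributed alike. Bmp4 was at 14.1 CPM in the epithelium, 8.40 CPM in the endoderm, 5.79 CPM in the mesoderm core, 2.84 CPM in the mesenchyme, 2.29 CPM in the endothelium and 0.429 CPM in the neural crest. Bmp7 had its highest levels in the epithelia, at 53.0 CPM in the epithelium and 51.8 CPM in the endoderm, whose intervals overlap, followed by the mesoderm core at 27.8 CPM, the mesenchyme at 4.41 CPM, the endothelium at 2.90 CPM and the neural crest at 1.97 CPM. Bmp2 was scarce in all these groups, between 1.41 CPM in the mesoderm core and 4.11 CPM in the endoderm.

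**Figure D2:**
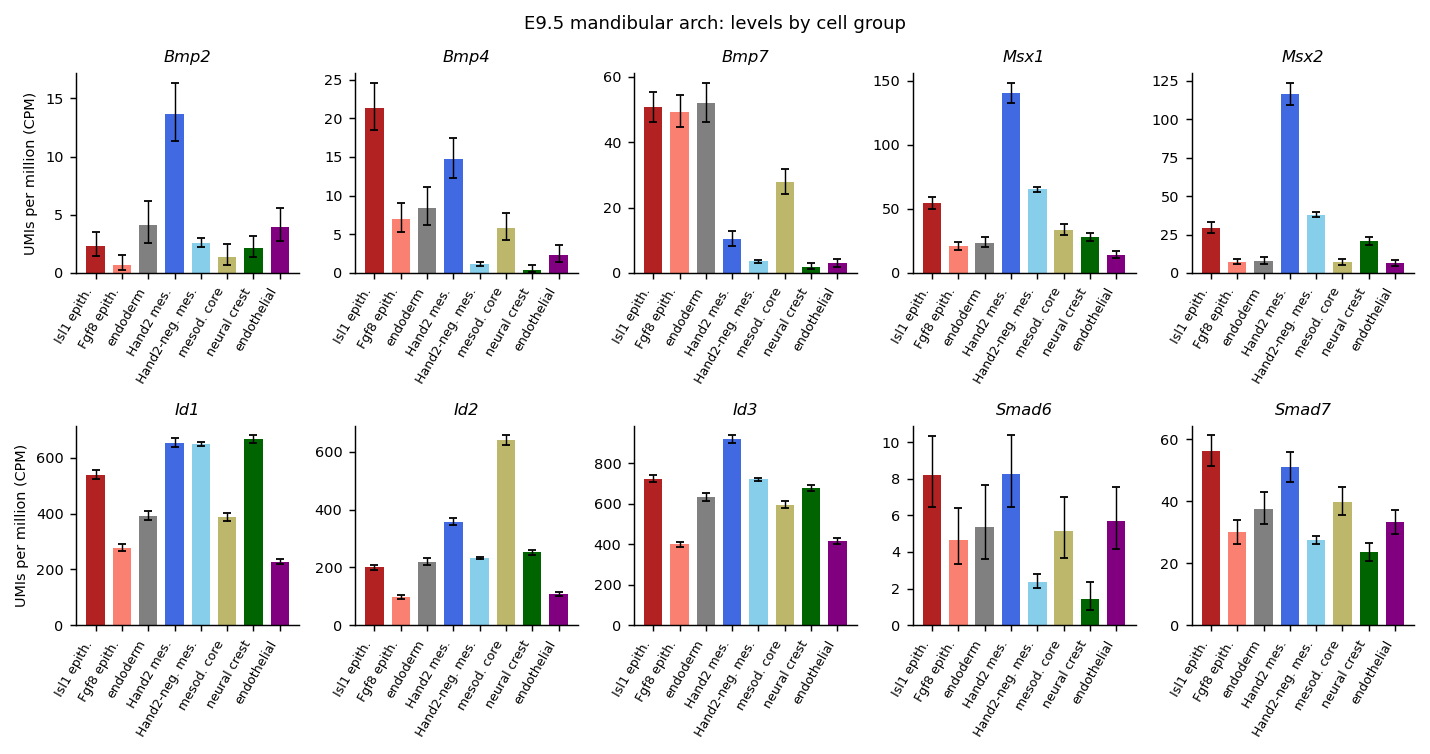
CPM of the 10 genes in cell groups of the E9.5 arch, with epithelium divided by Isl1 and Fgf8 and mesenchyme (mes.) by Hand2, 1 panel per gene with a linear axis from 0. Bars are sums over cells and whiskers exact 95% Poisson intervals; Bmp7 is between 49.3 and 51.8 CPM in the epithelial groups and the endoderm, Msx1 and Msx2 are highest in the Hand2 mesenchyme at 140.5 and 116.5 CPM, and Id2 in the mesoderm core at 639 CPM.

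The response genes are given next over the groups of the E9.5 arch other than blood. Msx1 was at 77.4 CPM (75.5 to 79.3) in the mesenchyme, 36.2 CPM (34.2 to 38.3) in the epithelium, 33.8 CPM (29.9 to 38.2) in the mesoderm core, 27.7 CPM in the neural crest, 23.8 CPM in the endoderm and 14.4 CPM in the endothelium, the intervals of epithelium and mesoderm core overlapping. Msx2 was at 51.3 CPM in the mesenchyme, 20.9 CPM (18.3 to 23.6) in the neural crest, 18.3 CPM (16.9 to 19.7) in the epithelium, and between 6.28 and 7.69 CPM in the endoderm, mesoderm core and endothelium, whose intervals overlapped. Id1 stood highest in the neural crest at 666 CPM (651.5 to 681) and the mesenchyme at 650 CPM (644 to 655), lower at 407, 392 and 389 CPM in the epithelium, endoderm and mesoderm core, and lowest in the endothelium at 228 CPM. Id2 had a different order, led by the mesoderm core at 639 CPM (622 to 657), which later gives rise to jaw muscle, with 252, 251 and 220 CPM in the neural crest, mesenchyme and endoderm, 146 CPM in the epithelium and 108 CPM in the endothelium. Id3 ranged from 416 CPM in the endothelium to 754 CPM in the mesenchyme. Smad7 ranged from 23.6 CPM in the neural crest to 41.1 CPM in the epithelium. In blood, the gauge of free RNA, Msx1 and Msx2 were at 5.96 CPM each, Id1, Id2 and Id3 at 85.1, 40.8 and 128 CPM and Smad7 at 3.40 CPM. The Msx2 intervals of the endoderm, mesoderm core and endothelium overlapped that of blood, so these Msx2 levels are not shown to lie above background. Smad6, at 3.40 CPM (0.927 to 8.71) in blood and 1.46 to 6.61 CPM in the other groups, lay within the blood interval in each of them, and its levels in the mesenchyme and the neural crest, below that of blood, were read as background.

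Between mesenchyme and epithelium, Bmp4 and Bmp7 were higher in the epithelium and the Msx and Id genes in the mesenchyme. Bmp7 in the mesenchyme stood at 0.0833 times (0.0743 to 0.0931) and Bmp4 at 0.202 times (0.172 to 0.236) its epithelial level, with Bmp7 UMIs in 5.83% of mesenchymal cells, below the blood gauge, and in 47.3% of epithelial cells. Bmp4 UMIs were present in 3.14% and 14.3% of the cells, short of the 15% criterion. Bmp2, at 3.92 and 1.73 CPM, was 2.26 times (1.71 to 3.03) higher in the mesenchyme, likewise in few cells. Of the mesenchymal UMIs, 94 of 332 for Bmp2 and 113 of 241 for Bmp4 came from 178 Hand2 cells with a Gata4, Gata5, Gata6 or Nkx2-5 UMI. These cells are described below, and whether they belong to the arch was not tested. Msx1 was at 77.4 and 36.2 CPM, a ratio of 2.14 (2.01 to 2.27), and Msx2 at 51.3 and 18.3 CPM, a ratio of 2.81 (2.59 to 3.06). Id1 was at 650 and 407 CPM, Id2 at 251 and 146 CPM and Id3 at 754 and 557.5 CPM, with ratios of 1.60 (1.57 to 1.63), 1.72 (1.67 to 1.77) and 1.35 (1.33 to 1.38). Smad7 was lower in the mesenchyme, at 31.2 and 41.1 CPM (ratio 0.757, 0.710 to 0.808). Smad6, at 3.23 and 6.61 CPM (ratio 0.489), had UMIs in too few cells to be called. In sum 5 of 10 genes were higher in the mesenchyme (background 12.7%), and Bmp7 and Smad7 made 2 of 10 lower (background 25.6%). There were 7 genes with UMIs in 15% or more of the cells of either group, so that 2 of 7 is close to the background, and the median log2 ratio was 0.42 against -0.08 over all genes. The Smad7 call was lost under 3 alternatives, at ratios between 0.788 and 0.803, and that of Id3 in thinned cells, at 1.297. Receptors were lower in the mesenchyme for 3 of 6, Bmpr1a (0.644), Acvr2a (0.551) and Acvr2b (0.727), and the ligand Bmp5 stood at 0.384 times its epithelial level. Atoh8, a basic helix-loop-helix gene, was 5.25-fold higher and Gata3 (0.125), Id4 (0.212) and Hey1 (0.752) were lower among the other response genes.

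The endoderm, recognised by Foxa1, Foxa2, Pax1 and Shh, differed from the epithelium in fewer genes. Id2 was at 220 and 146 CPM, a ratio of 1.504 (1.41 to 1.60). Msx1 at 23.8 and 36.2 CPM and Msx2 at 7.69 and 18.3 CPM gave ratios of 0.657 (0.545 to 0.786) and 0.421 (0.302 to 0.574). The Msx2 level of the endoderm is not shown to lie above that of blood. Bmp2 was 2.37 times (1.40 to 3.90) and Bmp4 0.595 times (0.431 to 0.804) the epithelial level in few cells, and Bmp7 had a ratio of 0.978. This made 1 of 10 higher (background 6.14%) and 2 of 10 lower (background 3.79%), with 7 genes in 15% or more of the cells of either group and a median log2 ratio of -0.09 against 0.00. In thinned cells Msx1, at 0.816 times, and Msx2 no longer met the criteria, while Bmp7, at 0.723 times, and Smad7, at 0.699 times, met them as lower. Acvr2a (1.44-fold), Id4 (1.58-fold) and Hey1 (1.42-fold) were the other pathway genes higher in the endoderm, and none was lower.

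Within the E9.5 epithelium, most of the pathway's response genes were higher on the Isl1 side. The 787 epithelial cells with an Isl1 UMI and no Fgf8 UMI had 21.4 CPM of Bmp4, against 6.95 CPM in the 593 cells with Fgf8 and no Isl1, a ratio of 3.07 (2.28 to 4.195). Msx1 was at 54.4 and 21.1 CPM, a ratio of 2.58 (2.17 to 3.08), and Msx2 at 29.2 and 7.31 CPM, a ratio of 3.99 (3.01 to 5.36). The Msx2 level of the Fgf8 cells lay near that of blood and is not shown to lie above background. Each of the 3 Id genes was near 2-fold higher on the Isl1 side. Id1 was at 540 and 278.5 CPM (1.94, 1.84 to 2.04), Id2 at 199.8 and 96.2 CPM (2.08, 1.91 to 2.26) and Id3 at 722 and 399 CPM (1.81, 1.73 to 1.89). Smad7 was higher there as well, at 56.3 and 30.0 CPM (1.88, 1.61 to 2.20). Smad6, at 8.22 and 4.68 CPM (1.76, 1.18 to 2.66), had UMIs in too few cells to be called. Bmp7 was the exception, at 50.6 and 49.3 CPM with a ratio of 1.03 (0.898 to 1.18), and Bmp2, with 21 and 6 UMIs, gave 3.20 (1.25 to 9.69). The Bmp2 share in the Fgf8 cells, 1.01%, lay below the blood gauge. Of the 10 genes 7 were higher (background 10.7%) and none lower (background 4.53%), 8 having UMIs in 15% or more of the cells of either group, and the median log2 ratio was 0.89 against 0.02 over all genes compared. Tbx3 (6.21-fold), Bambi (4.03-fold), Gata3 (2.45-fold) and Id4 (2.42-fold) made 4 of 10 other response genes higher, with Bmp5 (2.16-fold) and Acvr2a (1.31-fold).

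**Figure D3:**
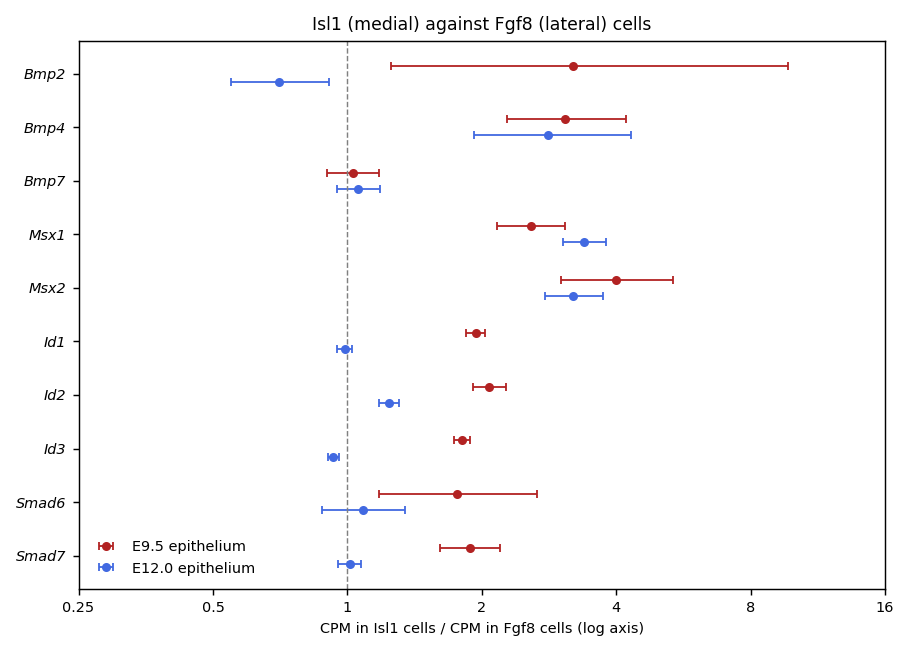
Ratio of CPM in Isl1 cells to Fgf8 cells (log axis) for the 10 genes at E9.5 and at E12.0, with exact conditional binomial 95% intervals. Msx1 and Msx2 lie above 2.5 at both stages, whereas Id1 and Smad7 lie near 1.9 at E9.5 and near 1 at E12.0.

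Depth differed between these groups, with medians of 11041 UMIs in the Isl1 cells and 13756 in the Fgf8 cells, the deeper group being the one with lower shares. Shares of cells with a Bmp4 UMI were 19.7% and 7.93%, or 9.60% and 2.23% after thinning each cell to 4100 UMIs, and shares with an Msx2 UMI 22.7% and 9.11%, or 8.82% and 3.95%. The shares after thinning are too low for the 15% criterion, so the calls of Bmp4 (ratio 4.40) and Msx2 (ratio 2.06) were lost when gates and counts were taken from thinned cells, while both ratios stayed above 2. Cell cycle genes were at 930 and 854 CPM, immediate-early genes at 162 and 123 CPM and mitochondrial UMIs at 1.97% and 1.73%. Within the epithelial cells with a UMI of Tfap2b (67 against 42 cells) the Bmp4 ratio of 1.10 had an interval of 0.479 to 2.62.

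Epithelial cells with both markers, or with neither, were examined next. Bmp4 was at 21.4 CPM with Isl1 alone, 20.5 CPM with neither (690 cells), 9.24 CPM with both (649 cells) and 6.95 CPM with Fgf8 alone. Msx2 followed the same order of pairs, at 29.2, 31.6, 8.46 and 7.31 CPM, and so did Id1, at 540, 470, 351 and 278.5 CPM. The Msx2 levels with both markers and with Fgf8 alone lay near that of blood. Cells with both markers thus stood closer to cells with Fgf8 alone, and cells with neither closer to cells with Isl1 alone. At E12.0 this arrangement was not seen for Id1, at 486.5, 529, 467 and 493 CPM, while Msx2 was at 95.6, 73.6, 56.1 and 29.8 CPM and Bmp4 at 12.1, 8.66, 10.6 and 4.28 CPM. The E12.0 groups pool cells of all zones, whose part was not tested.

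The number of Fgf8 UMIs ordered the response genes at E9.5. In epithelial cells without Isl1 that held 0, 1, 2 to 3 and at least 4 Fgf8 UMIs (690, 150, 187 and 256 cells), Bmp4 was at 20.5, 13.0, 7.20 and 4.00 CPM, Msx2 at 31.6, 12.5, 6.4 and 5.5 CPM and Id1 at 470, 336, 283 and 249.5 CPM. From 2 Fgf8 UMIs on, the Msx2 levels lay near that of blood and are not shown to lie above background. Id2 ran from 169 over 121 and 91.2 to 88.0 CPM, Id3 from 591 over 483 and 394 to 364 CPM and Smad7 from 51.2 over 39.1 and 31.6 to 24.8 CPM. Msx1 reached its low level at 2 to 3 UMIs, at 47.3, 31.5, 17.6 and 18.5 CPM, and Bmp7 changed least, at 59.3, 56.5, 44.0 and 49.3 CPM. The median depth of these classes went up with Fgf8, from 9652.5 to 12370, 13002 and 15148 UMIs, and its part was not tested. By contrast, in cells without Fgf8 that held 0, 1, 2 to 3 and at least 4 Isl1 UMIs (690, 404, 306 and 77 cells), Bmp4 was at 20.5, 19.7, 21.9 and 27.3 CPM and Msx2 at 31.6, 29.6, 29.9 and 24.1 CPM. Id1 was at 470, 518, 538 and 648 CPM and Id3 at 591, 670, 720 and 972 CPM over the same classes. At E12.0, cells without Isl1 and with 0, 1 and at least 2 Fgf8 UMIs (6111, 630 and 280 cells) had 136, 58.4 and 46.0 CPM of Msx1, 73.6, 35.7 and 18.2 CPM of Msx2 and 8.66, 5.06 and 2.73 CPM of Bmp4. Id1, at 529, 492 and 497 CPM, and Smad7, at 215, 213 and 200.4 CPM, changed little, and Id3 was higher with Fgf8, at 772, 898 and 942 CPM. The E12.0 classes pool cells of all zones. An Fgf8 UMI was in 3.74% of the Cxcl14 cells and 30.2% of the Irx1 cells. Those zones had 252 and 61 CPM of Msx1 and 725 and 876 CPM of Id3. The part of this mix of zones in the E12.0 values was not tested.

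**Figure D4:**
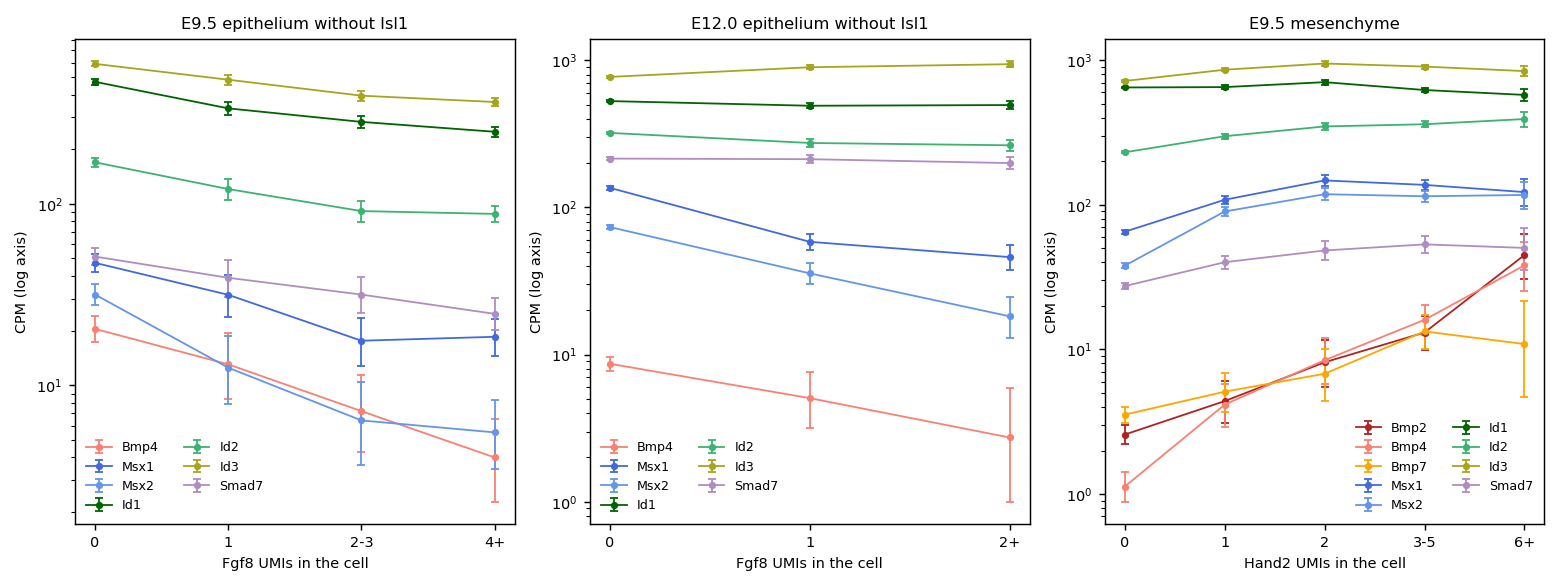
CPM of selected genes (log axis) in classes of cells with increasing UMIs of Fgf8 (left, E9.5, and middle, E12.0, both without Isl1) or Hand2 (right, E9.5 mesenchyme), with exact 95% Poisson intervals. In E9.5 epithelial cells without Isl1, Id1 goes from 470 CPM at 0 Fgf8 UMIs to 249.5 CPM at 4 or more, while at E12.0 it stays between 492 and 529 CPM. The E12.0 classes pool cells of all zones.

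In the E9.5 mesenchyme, cells were compared by Hand2, a basic helix-loop-helix gene of the distal arch. The 536 cells with at least 2 Hand2 UMIs had 14.7 CPM of Bmp4, against 1.13 CPM in 4680 cells without Hand2, a ratio of 13.1 (9.76 to 17.6). Bmp2 was at 13.7 and 2.58 CPM (5.31, 4.17 to 6.73) and Bmp7 at 10.4 and 3.54 CPM (2.94, 2.28 to 3.75), in 12.9% and 13.4% of the Hand2 cells. The Bmp7 share in the cells without Hand2, 4.72%, lay below the blood gauge. Msx1 was at 140.5 and 65.2 CPM (2.15, 2.02 to 2.30) and Msx2 at 116.5 and 38.0 CPM (3.07, 2.85 to 3.30), with Msx2 UMIs in 75.8% and 31.0% of the cells. Id2, at 358.5 and 231 CPM, was 1.55 times (1.49 to 1.61) and Smad7, at 51.0 and 27.4 CPM, 1.86 times (1.67 to 2.06) higher, while Id1, at 653.5 and 649 CPM, was level at 1.01 (0.980 to 1.04) and Id3, at 918 and 719 CPM, reached 1.28 (1.25 to 1.31). Smad6 was at 8.26 and 2.39 CPM (3.46, 2.59 to 4.59) in few cells. The count was 5 of 10 higher (background 9.65%) and none lower (background 2.20%), with 7 genes in 15% or more of the cells of either group and a median log2 ratio of 0.85 against 0.04. Of the other response genes 6 of 10 were higher, Hand1 (28.5-fold), Gata3 (4.90-fold), Bambi (2.80-fold), Id4 (2.40-fold), Dlx3 (2.18-fold) and Atoh8 (1.37-fold), as were Bmp5 (8.10-fold) and the type I receptor Bmpr1a (1.37-fold). The Bmp4 call rested on a UMI in 15.7% of the Hand2 cells, just over the limit. It was lost through the share of cells in thinned cells, with doubled panels and with single-marker gates, at ratios of 14.3, 11.3 and 8.24. A limit of 25% of cells also removed it.

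The ligands and the Msx genes differed in where they lay among the Hand2 cells. Over cells with 0, 1, 2, 3 to 5 and at least 6 Hand2 UMIs (4680, 516, 225, 270 and 41 cells), Bmp4 was at 1.13, 4.16, 8.43, 16.04 and 38.1 CPM and Bmp2 at 2.58, 4.39, 8.15, 13.1 and 45.0 CPM. Msx1 reached its upper level at 2 UMIs, at 65.2, 108.5, 148, 137.5 and 123 CPM, and so did Msx2, at 38.0, 90.0, 118.5, 115 and 117 CPM. The 84 Hand2 cells with a Bmp4 UMI held 6.25 times (4.30 to 9.08) the Bmp2 CPM and 4.68 times (3.01 to 7.21) the Bmp7 CPM of the 452 without, but 0.653 times the Msx2 CPM, 0.775 times the Id1 CPM and 0.731 times the Id3 CPM. These lower levels were not shared by all Hand2 cells with a ligand UMI, as the split below shows.

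Most Hand2 cells with a ligand UMI also held a UMI of Gata4, Gata5, Gata6 or Nkx2-5, transcription factor genes known from cardiac and pharyngeal mesoderm. Such a UMI was present in 178 of the 536 Hand2 cells and 206 of the 4680 cells without Hand2. Of the 163 Hand2 cells with a Bmp2, Bmp4 or Bmp7 UMI, 113 (69.3%, 61.6 to 76.3) held one, against 65 of the 373 without (17.4%, 13.7 to 21.7). In the 178 cells Bmp4 was at 46.4 CPM, against 2.65 CPM in the other Hand2 cells (17.5-fold, 10.5 to 31.1), Bmp2 at 38.6 and 4.21 CPM (9.17-fold) and Bmp7 at 27.1 and 4.06 CPM (6.69-fold). The Bmp7 share in the other Hand2 cells, 6.70%, lay below the blood gauge. Msx1, Msx2, Id1 and Id3 went the other way, with 113 and 151 CPM of Msx1, 90.8 and 126 CPM of Msx2 and 706 and 999 CPM of Id3, whereas Id2 was at 438 and 328 CPM (1.33-fold, 1.24 to 1.44). The 113 Hand2 cells with both a ligand UMI and such a UMI had 95.8, 80.6, 469 and 627 CPM of Msx1, Msx2, Id1 and Id3. The 50 with a ligand UMI alone had 148, 123, 777 and 1027 CPM. The 373 without a ligand UMI had 150, 124, 679 and 971 CPM. Among ligand cells, the lower levels were thus seen in those 113. The 178 cells had 88.0 CPM of Tnnt2 and 83.4 CPM of Myl7, which encode sarcomere proteins of the heart, against 0.624 CPM of each in the other Hand2 cells, and 185 and 12.2 CPM of Isl1. Tnnt2 UMIs were in 58 (32.6%) and Myl7 UMIs in 20 (11.2%) of the 178 cells, so a part of the cells carried these values. Twist1, of the mesenchymal panel, was at 413 and 708 CPM and Dlx5, a homeobox gene of the arch mesenchyme, at 35.3 and 156 CPM. These genes were chosen after the first values of the comparison were seen, and whether the 178 cells belong to the arch was not tested.

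With all cells that held such a UMI left out of both groups, Bmp4 stood 2.53 times (1.39 to 4.36) higher in the Hand2 cells, with a UMI in 3.63% of them, and no longer met the criteria. Bmp2 fell to a ratio of 1.83 and Bmp7 to 1.19, with an interval of 0.760 to 1.79 that included 1. Bmp7 UMIs were in 6.70% of these Hand2 cells and 4.58% of the cells without Hand2, both below the blood gauge. The Bmp4 share in the cells without Hand2, 1.34%, was also below it. Msx1 at 2.32, Msx2 at 3.33, Id2 at 1.44 and Smad7 at 1.67 still met the criteria, Id3 at 1.39 now met them, and Id1 was at 1.08. Hand1, at 3.28 and 0.657 CPM, had a ratio of 4.99 and Bmp5, at 5.62 and 2.96 CPM, of 1.90, with UMIs in 2.79% and 7.82% of the Hand2 cells, so both also fell short of the criteria. Dlx5, at 156 and 98.4 CPM, had a ratio of 1.59 (1.48 to 1.70), Isl1, at 12.2 and 6.57 CPM, of 1.85 and Twist1, at 708 and 729 CPM, of 0.971. The other genes of the pathway lists were not recomputed for this step. The count of 5 of 10 was therefore unchanged although Id3 had taken the place of Bmp4. In the E9.5 epithelium the same step left the count of the Isl1 and Fgf8 comparison at 7, with ratios of 2.81 for Bmp4 and 3.42 for Msx2.

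**Figure D5:**
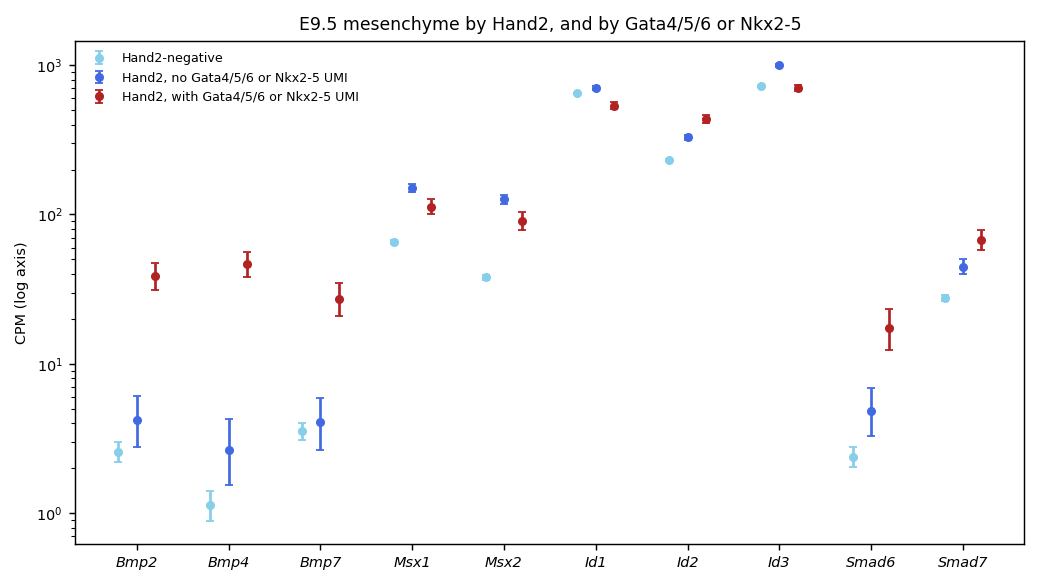
CPM of the 10 genes (log axis) in E9.5 Hand2 mesenchyme with and without a UMI of Gata4, Gata5, Gata6 or Nkx2-5 and in mesenchyme without Hand2, with exact 95% Poisson intervals. Bmp4 is at 46.4 CPM in Hand2 cells with such a UMI and at 2.65 CPM in those without, while Msx1 and Msx2 are higher in those without.

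Between single cells of the E9.5 epithelium the ligands were not alike in the genes they went with. The 389 cells with a Bmp4 UMI had 1.46 times the Msx1 CPM, 1.25 times the Msx2 CPM and 1.14 times the Id1 CPM of the 2330 without. The 1287 cells with a Bmp7 UMI had 0.753 times (0.627 to 0.903) the Bmp4 CPM, 0.639 times (0.543 to 0.751) the Msx2 CPM and 0.826 times the Smad7 CPM of the 1432 without, at median depths of 13573 and 11362.5 UMIs. Cells with a Bmp7 UMI were thus the deeper ones. Depth went the other way for Shh cells with and without a Bmp2 UMI, at 6926 and 7304 UMIs. It did so too for Hand2 cells with and without a Bmp4 UMI, at 13536.5 and 16760.5 UMIs. A count of 1 gene within a cell also takes from the share of the others. The ratios by ligand UMI are therefore descriptions of the same cells and not of separate samples.

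Across stages, the whole E12.0 epithelium was set beside the E9.5 epithelium. The E9.5 gate left out every cell with a UMI of Foxa1, Foxa2, Pax1 or Shh, whereas all E12.0 cells were kept. Of the 857 Bmp2 UMIs at E12.0, 401 came from the 258 cells of the Shh zone. The part of this difference in gates was not tested. Stage, library, sort, dissociation and depth cannot be told apart here, and over all genes the criteria were met as higher by 34.7% and as lower by 26.0%, beside which 5 of the 10 genes were higher and none lower. Smad7 was at 213 CPM at E12.0 and 41.1 CPM at E9.5, a ratio of 5.17 (4.90 to 5.46), with a UMI in 54.9% and 15.4% of cells thinned to 4100 UMIs. Msx1 was at 146 and 36.2 CPM (4.04, 3.81 to 4.28), with 34.4% and 13.2% of thinned cells, and Msx2 at 77.3 and 18.3 CPM (4.24, 3.90 to 4.604). Id2 was at 321 and 146 CPM (2.20, 2.14 to 2.27) and Id3 at 813 and 557.5 CPM (1.46, 1.44 to 1.48), whereas Id1 at 1.25 and Bmp7 at 1.29 fell short of the criterion. Bmp4 was the gene with the lower level at E12.0, at 9.68 and 14.1 CPM (0.685, 0.611 to 0.770), and Bmp2 was at 11 and 1.73 CPM (6.35, 4.88 to 8.39), both in few cells. The calls come from the 7 genes that had UMIs in 15% or more of the cells of either stage, with a median log2 ratio of 1.02 against 0.08 over all genes. Among receptors Bmpr2 (5.52), Acvr2a (4.72) and Bmpr1a (1.36) were higher and Acvr2b (0.481) lower, Smad5 (3.87) and Smad1 (2.30) were higher, Bmp5 (0.268) was lower, and Dlx3 (12.4), Tbx3 (3.30), Id4 (1.75) and Bambi (1.74) were higher, the values being ratios of E12.0 to E9.5.

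Over the 18 groups of at least 50 cells from both libraries that do not overlap, the levels of the 10 genes, as log2 CPM with 5 added, resembled each other in part. Msx1 and Msx2 had a Pearson r of 0.94, Smad6 and Smad7 of 0.92 and Id1 and Id3 of 0.91, while Bmp2 and Id2 had 0.10 and Bmp7 and Id1 0.15. Msx2 was also the gene most like Msx1 among 8531 genes, ahead of Wnt5a (0.87) and Pdlim4 (0.87). Those 8531 genes reached 20 CPM in at least 1 group and leave out the genes used for gates, so Shh, for example, could not be listed. The patterns most like that of Bmp2 were those of Gad1 (0.95), Wif1 (0.94) and Notum (0.93), the last 2 being secreted WNT inhibitors. Bmp7 was closest to Frem2 (0.97), Nav2 (0.96) and Lama5 (0.96), of which Lama5 encodes a laminin chain of epithelial basement membrane. Bmp4 had no match as close, with Smpd1 (0.82), Vwc2 (0.81) and Lypd6 (0.81). The closest patterns were Cops2 for Id1 (0.95), Mfap2 for Id2 (0.92), Rab23 for Id3 (0.97), Fry for Smad6 (0.96) and Zfp282 for Smad7 (0.99). These r values are descriptions over groups that share 2 libraries, with their depth and handling, and no inference is drawn from them.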

How the data were processed

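Cells of 2 10x Genomics 3′ V3 libraries were analysed, 1 of sorted E12.0 epithelium and 1 of whole E9.5 arches. The deposited files hold raw UMI counts per gene and barcode that the authors made with Cell Ranger on mm10 (GRCm38), without normalization and with barcodes already chosen as cells. The submitters' processing notes give Cell Ranger 2.0.0, the file headers 3.1.0 for E12.0 and 6.1.2 for E9.5, so counting rules may differ between stages.

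Cells with 200 to 5500 genes and at most 10% mitochondrial UMIs were kept, as in the study. UMIs were summed over cells of each gate with numpy 2.4.6, scipy 1.17.1 and pandas 2.3.3 under Python 3.11.15, figures drawn with matplotlib 3.10.9, and the steps tested on simulated data. Doublets were called with Scrublet in scanpy 1.11.5, 661 at E12.0 and 331 at E9.5, and were kept. At E9.5, gates used sums over marker panels of at least 3 UMIs and at least 2 times the opposing panel. Thinning to 4100 UMIs left out 1024 cells at E12.0 and 1759 at E9.5. With the kept cells summing to 77936364 and 166191431 UMIs, precision depends on the cells in a gate.

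The members, gene lists, gates and criteria were chosen with earlier results of these data known. Named genes are the 10 members, genes of the pathway lists that met the size criteria, and the genes of most similar pattern. The classes of marker UMIs, the cells with both or neither of Isl1 and Fgf8, the splits by ligand UMI and the cells with Gata4, Gata5, Gata6 or Nkx2-5, together with the cardiac and arch genes named beside them, were chosen after seeing the data. Alternatives changed the size criteria, cell filters, weighting, depth and gates. A further comparison within the E9.5 epithelium and a second set of E12.0 gate markers are not reported here.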

Additional observations from a re-analysis of the deposited data

Results flagged for a closer look

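For 2 genes the intervals of the Isl1 to Fgf8 ratio lay on opposite sides of 1 at E9.5 and E12.0. Id3 had a ratio of 1.81 at E9.5 and 0.9301 at E12.0, and the E9.5 ratio was 1.94 times (1.85 to 2.04) that at E12.0. Bmp2 had 3.20 and 0.703, a quotient of 4.55 (1.78 to 11.7) that rests on 21 and 6 Bmp2 UMIs at E9.5. The E12.0 ratios pool all zones. The Shh zone held 401 of the 857 Bmp2 UMIs at E12.0 and had too few cells with Fgf8 alone for a ratio of its own. At E9.5 the epithelium gate left out cells with a Shh UMI. The part of these cells in the Bmp2 ratios was not tested. Within the other E12.0 zones the ratios varied. Id3 was at 0.874 (0.826 to 0.925) in the Irx1 zone, 0.988 (0.946 to 1.03) in ungated cells, 1.05 (0.963 to 1.14) in the Cxcl14 zone and 1.38 (1.15 to 1.68) in the Dmrt2 zone, and Bmp2 was at 0.569 (0.314 to 1.02), 0.407 (0.244 to 0.686) and 1.52 (0.397 to 12.9) in the first 3 of these. For other genes the quotients were 1.97 for Id1, 1.68 for Id2, 1.86 for Smad7 and 0.760 (0.620 to 0.9304) for Msx1. The difference between stages was not tested, since each stage is 1 library, and the intervals cover counting error only.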

How the results depend on the processing

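No paired analysis was possible because each stage is 1 library with no replicates, and no replicate could be left out. Counts of genes meeting the criteria stayed within 1.5 times the reported count in 99 of 109 settings. These counts add higher and lower calls, so they do not show when 1 gene takes the place of another. In thinned cells of the endoderm comparison, Bmp7 and Smad7 took the place of Msx1 and Msx2 in this way. With a fold of 2 they were 2 for Cxcl14 against Irx1, 1 for Dmrt2 against Irx1, 2 for Cxcl14 against Dmrt2, 3 for mesenchyme against epithelium, 1 for endoderm, 3 for Hand2 and 4 for E9.5 Isl1 against Fgf8. With a UMI in 5% of cells they were 5 for Dmrt2 against Irx1, 4 for E12.0 Isl1 against Fgf8 and 8 for Hand2. Of 787 ratios, 630 moved by less than their counting interval and 157 by more, and no called ratio changed side under the alternatives reported. Leaving out cells with Gata4, Gata5, Gata6 or Nkx2-5 UMIs was added after seeing the data. The causes of these shifts were not tested. Ligands other than Bmp7 had a UMI in under 15% of the cells of most groups, which limits their calls.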
